A study of Mus musculus with 10 samples.

Results

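Microglia, the resident macrophages of the brain, read extracellular nucleotides through a small set of purinergic genes, and 7 of them are described here: the G protein-coupled nucleotide receptors P2ry12, P2ry13 and P2ry6, the ATP-gated cation channels P2rx4 and P2rx7, the ectonucleotidase Entpd1 and the adenosine receptor Adora3. They were chosen by gene name from the 78317 genes of the deposited table, where each occurs once. The choice was made with earlier results of these data known, so the shares of all genes given below are no independent test. All 7 were among the 15680 genes that were tested, those with a mean of at least 1 TPM (the length-normalised abundance of transcripts, scaled to the same total in each library), and each had a mean of at least 1 TPM in both groups. Poly(A) RNA was sequenced from tissue punches from the medial prefrontal cortex of mice labelled wild type (WT). One group of 5 libraries (numbers 3, 4, 5, 7 and 9) came from animals injected with a control adeno-associated virus (AAV), and the other of 5 (numbers 13, 14, 15, 17 and 18) from animals whose AAV overexpressed miR-130a-3p, so both groups carry a virus. The labels describe the tissue as mixed cell types. Strain, age, sex, the promoter in the AAV and the time after injection are not given in the sources used here, nor is the number of animals behind each library, so that p-values reflect only how much these libraries vary.

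ATP and ADP leak or are released from active and injured cells. P2Y12 and P2Y13 sense ADP and couple to inhibitory G proteins, P2Y6 senses UDP and promotes phagocytosis, and P2X4 and P2X7 open to ATP, the latter only at high concentrations. The ectoenzyme CD39, encoded by Entpd1, removes phosphates from ATP and ADP and leaves AMP, which CD73 (Nt5e) turns into adenosine, the ligand of the A3 receptor encoded by Adora3. P2ry12 is widely used as a marker of resting microglia in the brain, and its loss is a known feature of microglial activation.

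The mature sequence of the overexpressed microRNA is shown because its seed, bases 2 to 8 and in capitals, is the part that pairs with target transcripts (RefSeq, GRCm38.p6).
mmu-miR-130a-3p: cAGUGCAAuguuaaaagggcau
In RefSeq the same seed is held by mmu-miR-130b-3p, mmu-miR-130c, mmu-miR-301a-3p, mmu-miR-6341, mmu-miR-6389 and mmu-miR-721. The complement of the seed (TTGCACT) and the complement of bases 2 to 7 followed by A (TGCACTA) were searched on the transcript strand in the longest annotated 3′ untranslated region of each gene (GENCODE M21, GRCm38). The regions searched were 937 bases long for P2ry12, 1450 for P2ry13, 534 for P2ry6, 1425 for P2rx4, 2985 for P2rx7, 2573 for Entpd1 and 1031 for Adora3. In these windows 0 of the 7 genes held TTGCACT and 0 held TGCACTA. Of 13275 tested genes with such a region, 11.9% held TTGCACT and 16.0% held either motif. These counts cover only the letters of these windows, and other kinds of pairing were not searched.

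P2ry12 and P2ry13 are neighbours on chromosome 3 and lie on the strand opposite to Med12l, within it (GENCODE M21, GRCm38). Their promoters are shown with those of both RefSeq starts of Entpd1, because P2ry12 and Entpd1 mark the ends of the range of changes given below and P2ry13 lies beside P2ry12. Capitals mark GAGGAA, the PU box bound by the myeloid transcription factor PU.1, searched on both strands (GAGGAA and TTCCTC) from 250 bases before to 50 bases after each start.
P2ry12, chr3:59262936-59263235, minus strand: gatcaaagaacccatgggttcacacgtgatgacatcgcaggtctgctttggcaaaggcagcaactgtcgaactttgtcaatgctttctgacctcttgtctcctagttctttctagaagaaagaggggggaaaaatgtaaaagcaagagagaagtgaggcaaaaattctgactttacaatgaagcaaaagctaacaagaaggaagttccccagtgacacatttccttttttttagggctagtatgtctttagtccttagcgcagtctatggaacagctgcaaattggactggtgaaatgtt
P2ry13, chr3:59210833-59211132, minus strand: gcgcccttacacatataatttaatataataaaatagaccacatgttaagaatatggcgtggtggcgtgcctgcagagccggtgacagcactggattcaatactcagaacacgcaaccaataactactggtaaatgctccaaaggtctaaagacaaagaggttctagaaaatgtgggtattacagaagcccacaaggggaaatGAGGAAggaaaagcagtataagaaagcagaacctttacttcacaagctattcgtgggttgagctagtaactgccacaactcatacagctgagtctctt
Entpd1 first start, chr19:40612116-40612415, plus strand: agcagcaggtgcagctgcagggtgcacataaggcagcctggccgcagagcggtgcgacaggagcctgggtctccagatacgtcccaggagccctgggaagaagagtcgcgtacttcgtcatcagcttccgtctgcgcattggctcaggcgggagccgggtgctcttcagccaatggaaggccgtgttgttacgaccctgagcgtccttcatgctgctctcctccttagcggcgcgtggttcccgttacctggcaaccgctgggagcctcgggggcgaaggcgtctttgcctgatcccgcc
Entpd1 second start, chr19:40659520-40659819, plus strand: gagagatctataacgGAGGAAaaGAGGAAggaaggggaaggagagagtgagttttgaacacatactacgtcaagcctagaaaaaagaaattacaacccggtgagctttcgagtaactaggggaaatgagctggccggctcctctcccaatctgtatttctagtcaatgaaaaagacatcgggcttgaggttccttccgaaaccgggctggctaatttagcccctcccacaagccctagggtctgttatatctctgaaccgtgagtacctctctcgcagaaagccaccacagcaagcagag
The sequences are RefSeq's on GRCm38.p6, whereas the submitters' processing notes name GRCm39. RefSeq starts were matched for 6 of the 7 genes, P2ry6 not among them. Of their 8 starts, 5 held the motif: that of P2ry13, that of Adora3, both of P2rx7 and the second of Entpd1. It was in 0 windows of P2ry12 and P2rx4 and not in the first of Entpd1. The motif was in 28.3% of 32851 mouse promoters of the same length. A match is a description of the sequence and not evidence of binding.

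In the miR-130a libraries 6 of the 7 genes fell and 0 rose, while P2ry12, the most abundant of them, did not pass the test. Among all 15680 genes tested, 11.3% were lower and 2.19% higher by the same rule (limma, Benjamini-Hochberg adjusted p under 0.05). For the same 6 genes every miR-130a library was below every control, and 9.46% of all genes tested were lower without overlap. The median log2 fold change of the 7 genes was −0.84, and that of all tested genes −0.09, which was 0.05 after quantile normalization. In tissue punches, fewer microglia and less RNA per microglial cell cannot be told apart. All fold changes below are differences of log2(TPM + 1), which understate the change of weakly expressed genes, each with its standard error (SE) from the fit of all genes.

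**Figure D1:**
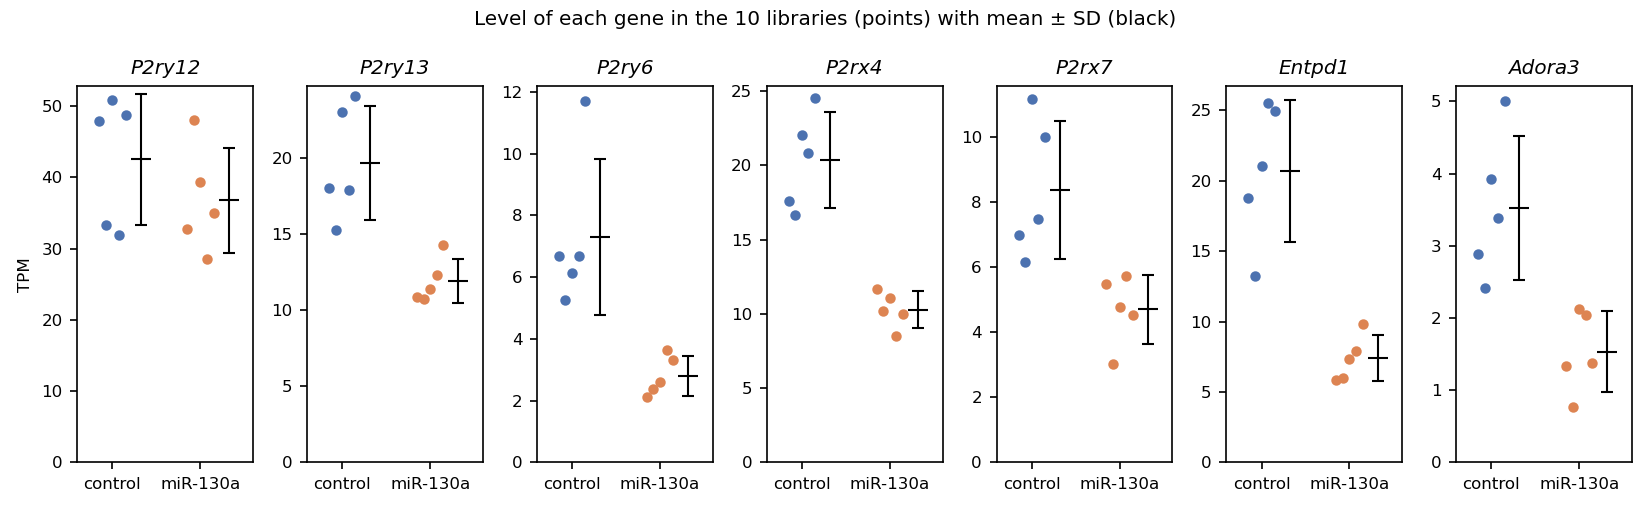
TPM (vertical axes, each from 0) of the 7 genes in the 5 control and 5 miR-130a libraries, with points for libraries and black bars for mean ± SD. The miR-130a points lie below all control points for 6 genes and overlap with them for P2ry12.

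The ADP receptor P2ry12 (ENSMUSG00000036353) was at 47.9, 33.3, 50.9, 31.9 and 48.7 TPM in control libraries 3, 4, 5, 7 and 9, and at 32.8, 48.1, 39.3, 28.6 and 35.0 TPM in miR-130a libraries 13, 14, 15, 17 and 18. Control libraries 4 and 7 were as low as most miR-130a libraries, and miR-130a library 14 was as high as the other 3 controls, so the groups overlapped. The log2 fold change was −0.20 (SE 0.17; 95% interval −0.57 to 0.17; limma adjusted p = 0.485), and the interval takes in falls as large as −0.57 as well as small rises.

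P2ry13 (ENSMUSG00000036362), its neighbour on the chromosome and also an ADP receptor, was at 18.05, 15.3, 23.1, 17.9 and 24.1 TPM in control libraries 3, 4, 5, 7 and 9. In miR-130a libraries 13, 14, 15, 17 and 18 it was at 10.9, 10.8, 11.4, 12.3 and 14.3 TPM. The highest miR-130a value was below the lowest control, and the group mean in miR-130a libraries was 60.7% of that in controls. P2ry13 fell by 0.66 on the log2 scale (SE 0.13; 95% interval −0.96 to −0.37; limma adjusted p = 0.00827).

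The UDP receptor P2ry6 (ENSMUSG00000048779) was at 6.68, 5.25, 6.14, 6.70 and 11.7 TPM in the controls, in the same order of libraries, and at 2.11, 2.39, 2.60, 3.65 and 3.32 TPM in the miR-130a libraries. Control library 9 stood above the other 4 controls, which lay between 5.25 and 6.70 TPM, and still every control exceeded every miR-130a library. P2ry6 fell by 1.09 on the log2 scale (SE 0.19; 95% interval −1.51 to −0.67; limma adjusted p = 0.00452), and its mean was 38.6% of the control mean.

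Of the ATP-gated channels, P2rx4 (ENSMUSG00000029470) was at 17.6, 16.7, 22.0, 20.8 and 24.5 TPM in controls and at 11.7, 10.2, 11.1, 8.49 and 9.97 TPM in miR-130a libraries. It had the smallest relative spread of the 7 genes in both groups, with an SD of 15.9% of the mean in controls and 11.8% in miR-130a libraries. P2rx4 fell by 0.91 on the log2 scale (SE 0.12; 95% interval −1.18 to −0.64; limma adjusted p = 0.00145), to 50.6% of the control mean.

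P2rx7 (ENSMUSG00000029468), which lies next to P2rx4 on chromosome 5 and encodes the channel that triggers inflammasome activation, was at 7, 6.17, 11.2, 7.49 and 10.01 TPM in controls and at 5.50, 3.04, 4.79, 5.73 and 4.52 TPM in miR-130a libraries. The gap between the groups was narrow, 5.73 against 6.17 TPM. P2rx7 fell by 0.71 on the log2 scale (SE 0.18; 95% interval −1.10 to −0.31; limma adjusted p = 0.0250). This call was lost under median-ratio scaling (−0.61; limma adjusted p = 0.0574) and quantile normalization (−0.51; 0.0867). It was also lost without control library 5 (−0.60; limma adjusted p = 0.0565) and without miR-130a library 14 (−0.59; 0.0608), which held the highest and the lowest value.

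Entpd1 (ENSMUSG00000048120), on chromosome 19, showed the largest change of the 7 genes. It was at 18.8, 13.2, 21.04, 25.55 and 24.9 TPM in controls and at 5.88, 6, 7.34, 7.91 and 9.84 TPM in miR-130a libraries, and the highest miR-130a library was below the lowest control. Entpd1 fell by 1.36 on the log2 scale (SE 0.18; 95% interval −1.76 to −0.95; limma adjusted p = 0.00145), to 35.7% of the control mean. Of the tested genes, 2.38% had a fold change at least as negative.

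Adora3 (ENSMUSG00000000562), on chromosome 3 and the weakest of the set, was at 2.89, 2.41, 3.92, 3.38 and 5 TPM in controls and at 1.34, 0.77, 2.13, 2.04 and 1.37 TPM in miR-130a libraries. The groups did not overlap, although miR-130a library 15 at 2.13 TPM came close to control library 4 at 2.41 TPM. Adora3 fell by 0.84 on the log2 scale (SE 0.20; 95% interval −1.28 to −0.40; limma adjusted p = 0.0186). Its locus is shared with Tmigd3, which the table lists separately at between 0 and 0.60 TPM, and the division of reads between the genes was not examined.

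The order of levels differed between the groups in part. In controls P2ry12 led at a mean of 42.5 TPM, apart from the rest. Entpd1, P2rx4 and P2ry13 followed at 20.7, 20.3 and 19.7 TPM with overlapping ranges, then P2rx7 and P2ry6 at 8.37 and 7.30 TPM, which also overlapped, and Adora3 at 3.52 TPM. In miR-130a libraries P2ry12 again led at 36.8 TPM, P2ry13 and P2rx4 at 11.9 and 10.3 TPM overlapped, as did P2rx4 and Entpd1 at 7.39 TPM, and P2rx7, P2ry6 and Adora3 stood at 4.72, 2.81 and 1.53 TPM. Within miR-130a libraries the ranges of Entpd1 and P2rx7 did not overlap, while those of P2rx7 and P2ry6, and of P2ry6 and Adora3, did.

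Whether 2 of the genes changed by different amounts was tested for all 21 pairs with the difference of their log2 values within each library (2-sided exact permutation test). After Benjamini-Hochberg adjustment 0 pairs passed, and 9 pairs had an unadjusted exact p under 0.05. For 3 pairs the differences did not overlap between the groups. P2ry12 rose relative to Entpd1 by 1.16 (95% interval 0.52 to 1.79) and relative to P2rx4 by 0.71 (0.31 to 1.12), and P2ry13 relative to Entpd1 by 0.69 (0.39 to 1.00), in units of log2. Each of these had an exact permutation p of 0.00794, the smallest possible, and 0.0556 adjusted over the 21 pairs, which missed the threshold. With so few libraries no pair could pass unless several pairs had p-values at or near this smallest value. The count of 0 therefore does not show that the genes changed alike. For the neighbours P2ry12 and P2ry13 the difference was 0.47 (95% interval 0.03 to 0.90; exact permutation p = 0.0397, adjusted 0.104).

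The set was then placed beside other microglial genes. Of 17 homeostatic microglial markers tested (18 listed, Fcrls not analysed here), none of them among the 7 genes, 14 fell and 0 rose, with a median log2 fold change of −0.98. Of all genes tested 11.3% were lower by the same rule. The colony-stimulating factor receptor Csf1r and the lysosomal membrane protein Laptm5 fell, with log2 fold changes of −1.39 and −1.48 (limma adjusted p = 0.000873 and 0.000978). The mean of the marker log2 values lay between 5.47 and 6.02 in controls and between 4.54 and 4.98 in miR-130a libraries, a difference of −0.97. Only 1 of the 17 markers, the fructose transporter Slc2a5 (−0.07; named after its values were seen), had a less negative fold change than P2ry12, and 4 had a more negative one than Entpd1. The markers changed unequally, for example Trem2 by −1.57 and Ctss by −1.52, but Gpr34 by −0.43 (not passed) and Siglech by −0.38. These were also named after their values were seen. How much of the marker RNA came from other leukocytes was not tested.

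When this marker mean was subtracted from every gene in each library, 2 of the 7 genes passed, in opposite directions. On this scale P2ry12 was higher in miR-130a libraries by 0.77 (SE 0.22; 95% interval 0.31 to 1.24; limma adjusted p = 0.00470), but 85.9% of all genes tested were also higher, so that its call is near the background. Entpd1 was lower by −0.38 (SE 0.16; 95% interval −0.73 to −0.04; limma adjusted p = 0.0364), where 1.33% of all genes were lower. With most genes called on this scale, adjustment changed little, and its unadjusted limma p was 0.0311. The share of 1.33% also depends on the fall of the marker mean, which moved genes upward. As deposited, 4 of the 17 markers themselves had a more negative change than Entpd1. The call of Entpd1 was lost in 11 of the 22 alternatives, among them leaving out control library 7 (−0.32; limma adjusted p = 0.106). The other 5 did not pass. P2ry13 differed by 0.31 (limma adjusted p = 0.0676), and it passed without control library 5 (0.39; limma adjusted p = 0.0340) and without miR-130a library 17 (0.35; 0.0383), where Entpd1 did not. P2rx7 differed by 0.27 (limma adjusted p = 0.175), Adora3 by 0.13 (0.508), P2rx4 by 0.06 (0.737) and P2ry6 by −0.12 (0.497). Such a difference of differences does not show that a gene was unchanged.

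**Figure D2:**
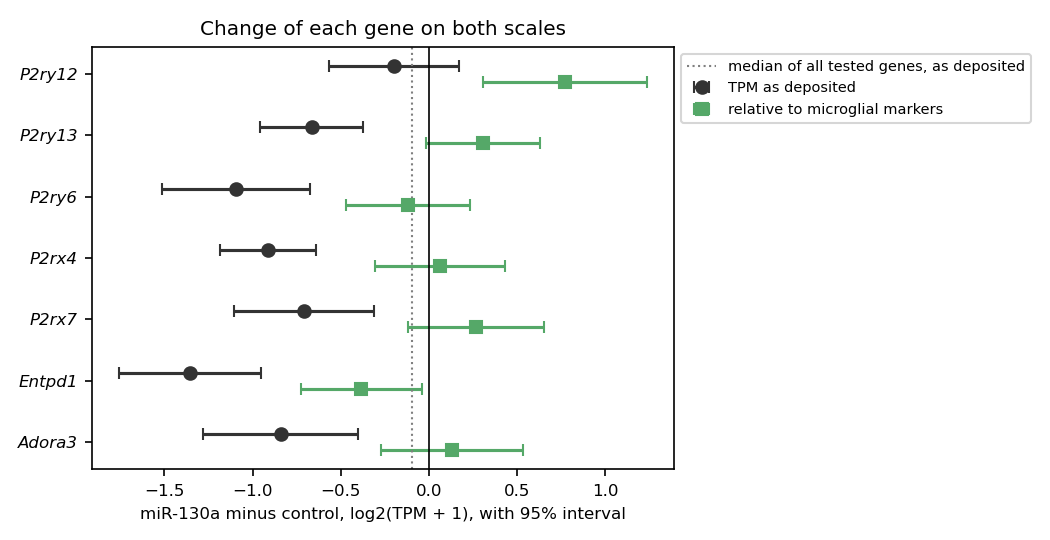
Log2 fold change of each gene (horizontal axis, miR-130a minus control, log2(TPM + 1), bars for 95% intervals) from TPM as deposited (black circles) and after subtracting the microglial marker mean (green squares). As deposited, the interval of P2ry12 includes 0 and the other 6 lie below it; relative to the markers only P2ry12 and Entpd1 have intervals without 0.

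Within the groups the genes followed the marker mean to different degrees. For deviations from the group means over the 10 libraries, P2ry6 had a Pearson r of 0.92 with the marker mean (Spearman rho 0.95; exact permutation p = 0.000486 and 0.000972), Entpd1 of 0.83 (rho 0.85; exact permutation p = 0.00917 and 0.00632) and Adora3 of 0.81 (rho 0.78; exact permutation p = 0.00979 and 0.0185). Adjusted over the 7 relations, the Pearson p-values of these 3 were 0.00340, 0.0228 and 0.0228. Without control libraries 9 and 4, the farthest in marker mean, r was 0.87, 0.73 and 0.66.

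P2ry13 had an r of 0.69 (rho 0.82; exact permutation p = 0.0424 and 0.0121; adjusted 0.0741) that was 0.35 without those 2 libraries, so that its size depended on them. Leaving them out narrows the range of the marker mean, and r was lower for every gene of the set. P2rx7 had an r of 0.58 (rho 0.53; exact permutation p = 0.112 and 0.163), P2rx4 of 0.22 (rho 0.20; 0.575 and 0.620) and P2ry12 of −0.11 (rho −0.19; 0.778 and 0.633). Without libraries 9 and 4 these were 0.36, −0.56 and −0.71. In every control and miR-130a library the values come from the same TPM scaling, so that a library's scaling moves a gene and the markers together.

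**Figure D3:**
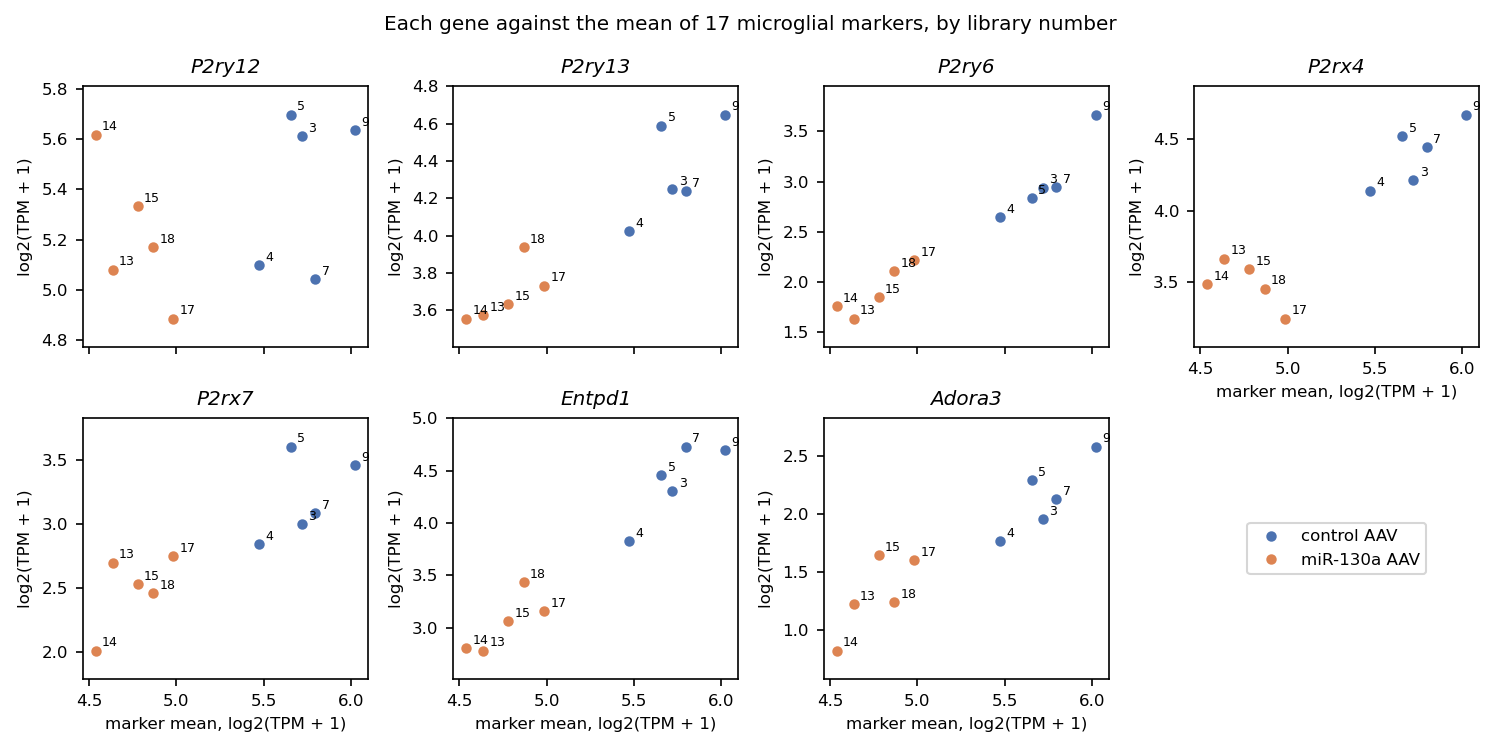
Log2(TPM + 1) of each gene (vertical axes) against the mean of 17 microglial markers (horizontal axis, log2(TPM + 1)), 1 point per library with its number, blue for control and orange for miR-130a. P2ry6 lies along a line through both groups, whereas P2ry12 of miR-130a library 14 is as high as in controls 3, 5 and 9 at the lowest marker mean.

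Among themselves, P2rx7 and Adora3 were the most alike of the 7 genes in these deviations (Pearson r 0.83 over 10 libraries), followed by P2ry13 and Entpd1 (0.77) and P2ry13 and P2ry6 (0.73). P2ry12 had an r between −0.01 and 0.42 with the other 6. These values are given as a description.

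By likeness of within-group deviations over 10 libraries, among 10450 other genes with a mean of at least 5 TPM, P2ry12 was closest to Bmpr1b, Lsg1 and Dcaf1 (Pearson r 0.92, 0.91 and 0.91) and P2rx4 to Timp2, Commd6 and Kdelr2 (0.96, 0.95 and 0.92). P2rx7 was closest to Lamp1, Cyp2j6 and Sub1 (0.96, 0.93 and 0.93) and Entpd1 to F11r, Scamp2 and Gusb (0.96, 0.95 and 0.92). Immunoglobulin segments were among the closest genes of the others: Ighv1-55, Ighv2-9-1 and Apbb1ip for P2ry13 (0.96, 0.92 and 0.91), Ighv8-8, Phyhd1 and Iglc1 for P2ry6 (0.98, 0.96 and 0.95), and Slc31a1, Ighv3-6 and Lamc1 for Adora3 (0.95, 0.93 and 0.93). With so few libraries, high values of r arise for some of so many genes, and they are given as a description.

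Markers of some other cells moved too. Beside the counts below, 11.3% of all genes tested were lower and 2.19% higher in the main fit. Of 8 border macrophage markers, 5 were tested and 1 fell, Ms4a7 (11.2 ± 13.7 TPM in controls, 1.16 ± 0.501 in miR-130a libraries; limma adjusted p = 0.0381, lost in 11 of 21 alternatives), and the summed TPM of the list lay between 9.28 and 48.6 in controls and between 5.70 and 12.4 in miR-130a libraries. Monocyte and neutrophil markers (3 of 5 tested fell) summed to between 51.1 and 177 TPM in controls and between 16.3 and 53.1 in miR-130a libraries. The 3 did not include the neutrophil markers S100a8 and S100a9 (log2 fold changes 0.02 and 0.29, not passed, both named after their values were seen). Lymphocyte markers summed to between 12.6 and 90.6 TPM in controls and between 2.03 and 12.1 TPM in miR-130a libraries. Of 6 lymphocyte markers tested 4 fell, but Cd2 and Il2rb among these had means under 1 TPM in miR-130a libraries and were tested only because of their control values. That count was 2 without miR-130a library 14 and 2 without control libraries 7 and 9, and lay between 2 and 6 over all alternatives. Endothelial markers, of cells that also carry Entpd1, fell in 7 of 8 cases (3 to 7 over the alternatives) with a median of −0.49. Their part in the changes of the 7 genes was not tested. Of the 8 mast cell markers, a blood-derived cell type that carries Adora3 in mice, 0 reached the mean for testing, 2 were listed at 0 in every library, and the sum was at most 1.41 TPM. Oligodendrocyte precursor markers (0 of 7), oligodendrocyte markers (0 of 8) and neuron markers (0 of 8) did not pass, with medians of −0.08, −0.27 and 0.01. Of 8 astrocyte markers 1 fell, with a median of −0.27 for the list. Without control library 9 the numbers that fell were 1 precursor, 0 oligodendrocyte, 1 neuron and 2 astrocyte markers. Neuron markers went either way: 2 of 8 fell without control libraries 7 and 9, and 2 rose without miR-130a library 17. With library weights 2 of 7 precursor and 4 of 8 astrocyte markers fell, and 1 neuron marker rose. Mitochondrially encoded genes took between 13.04% and 16.4% of TPM in controls and between 16.0% and 19.9% in miR-130a libraries.

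The remaining purinergic receptors were weakly expressed in this tissue, with the exception of Adora1. Of 6 other P2Y receptors 5 were under the mean for testing, and P2ry4 was listed at 0 in every library. P2ry14, a receptor for UDP-sugars located beside P2ry13, was at 3.89 ± 1.28 TPM in controls and 2.14 ± 0.498 TPM in miR-130a libraries (SD, n = 5 each), and its log2 fold change of −0.62 missed the threshold (limma adjusted p = 0.0520). P2ry14 passed in 3 of 20 alternatives. Of 5 other P2X channels 1 was tested, P2rx6, at 2.84 ± 0.427 and 1.76 ± 0.618 TPM without passing (−0.50; limma adjusted p = 0.0798). It too passed in 3 of 20 alternatives. Of the other adenosine receptors, Adora1, an inhibitory receptor of neurons, was at 102 ± 22.8 and 85.1 ± 7.34 TPM and Adora2b at 3.90 ± 1.22 and 2.88 ± 0.649 TPM, both without passing (−0.22 and −0.32; limma adjusted p = 0.358 and 0.308). Over the alternatives Adora1 passed in 2 of 21 and Adora2b in 0 of 20. Adora2a, a stimulatory receptor, fell from 4.17 ± 0.967 to 2.36 ± 0.707 TPM (−0.63; limma adjusted p = 0.0413), a call lost in 13 of 20 alternatives.

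Enzymes and transporters that handle nucleotides and adenosine mostly did not pass: of 11 tested, 2 fell and 0 rose, with a median of −0.28. Over the alternatives 1 to 4 fell, with 1 without control library 7 or without miR-130a library 13, 14 or 17. By the same rule as in the main fit, 11.3% of all genes tested were lower. Neither this count nor that of the ATP release genes below was tested against that share. The equilibrative nucleoside transporter Slc29a1 dropped from a mean of 18.1 ± 2.28 to one of 12.6 ± 0.587 TPM (−0.48 on the log2 scale; limma adjusted p = 0.00986), and the nucleotide pyrophosphatase Enpp1 from 2.85 ± 0.622 to 1.26 ± 0.643 TPM (−0.80; 0.0257), the latter call lost in 7 of 20 alternatives. The purine nucleoside phosphorylase Pnp, at 11.5 ± 4.30 and 6.37 ± 1.62 TPM, did not pass (−0.73; limma adjusted p = 0.0544), but passed in 6 of 21 alternatives. Nt5e, which acts after Entpd1, was at 1.31 and 1.03 TPM on average, and Adk, which consumes adenosine, at 57.1 and 60.6 TPM, both without passing (named after their values were seen). Of 5 ATP release genes tested 1 fell, the pannexin channel Panx1, from 25.002 ± 7.19 to 13.4 ± 5.36 TPM (−0.88; limma adjusted p = 0.0361), a call lost in 10 of 21 alternatives. Panx2 and the channel Calhm2 did not pass (−0.42 and −0.47; limma adjusted p = 0.0515 and 0.0728). Over the alternatives Panx2 passed in 5 of 21 and Calhm2 in 0 of 20.

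Among 14 signalling genes listed for receptor coupling, all tested, 9 fell and 0 rose, with a median of −0.45. Of all genes tested 11.3% were lower. Over the alternatives that tested all 14, 6 to 10 fell, and with a filter at a mean of 5 TPM 5 of 9 tested fell. Which receptors these genes serve in this tissue was not tested. The phospholipase Plcg2 averaged 5.68 ± 1.23 TPM in controls and 2.02 ± 0.450 TPM with miR-130a, a log2 fold change of −1.14 (limma adjusted p = 0.00147). The actin regulator Vasp fell from 23.5 ± 6.70 to 9.29 ± 1.96 TPM (−1.23; limma adjusted p = 0.00314) and the G protein subunit Gna12 from 70.4 ± 8.36 to 44.6 ± 7.08 TPM (−0.65; 0.00580). The potassium channel Kcnk13 was at 4.44 ± 0.578 and 3.16 ± 1.21 TPM and its change of −0.43 missed the threshold (limma adjusted p = 0.182; named after its values were seen).

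Of 9 listed inflammasome-related genes, Nlrp3 and Il1b were under the mean for testing (both named after their values were seen). Nlrp3 averaged 0.976 TPM in controls and 0.456 TPM in miR-130a libraries, and Il1b 1.32 and 0.454 TPM. Of the 7 tested, 5 fell and 0 rose, where 11.3% of all genes tested were lower. Of the 5, Casp4 and Il1a had means under 1 TPM in miR-130a libraries and were tested only because of their control values. The count was 3 when any of control libraries 3 and 7 and miR-130a libraries 13, 14, 17 and 18 was left out, and also without control libraries 7 and 9, with median-ratio scaling, with quantile normalization and with no filter. With a filter at a mean of 5 TPM, 1 of 3 tested fell. The caspases Casp1 and Casp4 fell, Casp1 from 6.03 ± 2.11 to 2.25 ± 0.374 and Casp4 from 3.02 ± 1.08 to 0.746 ± 0.424 TPM (log2 fold changes −1.07 and −1.20; limma adjusted p = 0.00433 and 0.00556). The pore-forming protein Gsdmd fell from 6.73 ± 2.60 to 2.36 ± 0.755 TPM (−1.16; limma adjusted p = 0.00955). Il18 and Nek7 did not pass (0.16 and 0.03; limma adjusted p = 0.447 and 0.889; named after their values were seen).

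**Figure D4:**
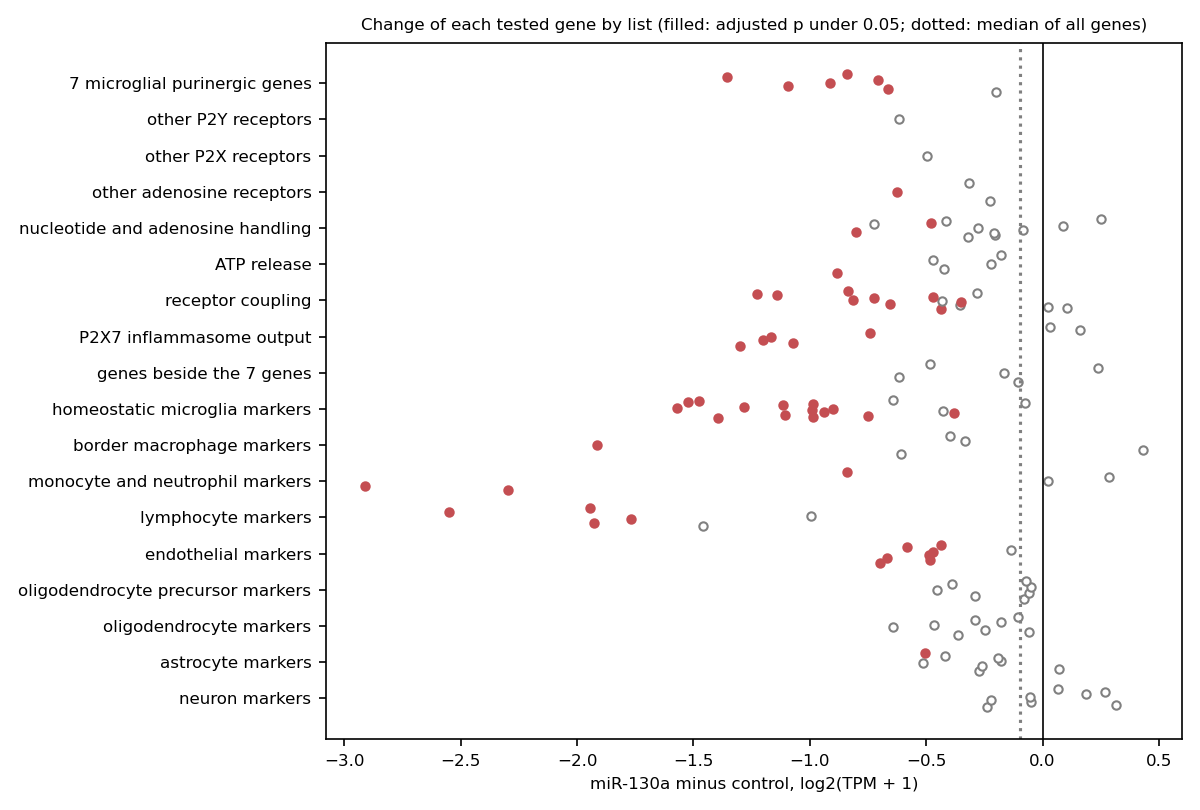
Log2 fold change (horizontal axis, miR-130a minus control, log2(TPM + 1)) of each tested gene by list, filled where the limma adjusted p is under 0.05; the dotted line is the median of all tested genes at −0.09. All 7 purinergic genes lie within the range of the homeostatic microglial markers, with P2ry12 near its upper end, and the neuron markers have a median of 0.01.

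Genes that adjoin or overlap the 7 were examined because reads of overlapping genes can be confused unless counting used strand; the kit is stranded, and the counting setting is not given in the sources used here. Of 10 listed, 5 were tested and 0 passed in limma. Med12l, which spans P2ry12 and P2ry13 on the other strand, was at 3.31 ± 0.647 TPM in controls and 3.05 ± 0.854 TPM in miR-130a libraries (log2 fold change −0.11; limma adjusted p = 0.747; named after its values were seen). Arhgef17 beside P2ry6 and Ift81 beside P2rx7 did not pass (−0.49 and 0.24; limma adjusted p = 0.0994 and 0.309). Over 21 alternatives Arhgef17 passed in 3 as lower and Ift81 in 1 as higher. An unadjusted p under 0.05 was reached by 2 of the 5. Without control library 9, where Arhgef17 was lowest, 2 of the 5 fell, and the change of Arhgef17 was −0.68 (limma adjusted p = 0.00134). P2ry14 passed without control library 4 (−0.71; limma adjusted p = 0.0380).

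Control libraries 7 and 9 stood farthest out on the first principal component of all genes, at −46.7 and −62.9, against −17.6 to −3.36 in the other controls and 15.1 to 39.6 in miR-130a libraries. Without both, 4 of the 7 genes fell, where 15.6% of all genes were lower. The calls of P2rx7 (−0.66; limma adjusted p = 0.0685) and Adora3 (−0.70; 0.0586) were then lost, whereas P2ry13, P2ry6, P2rx4 and Entpd1 kept theirs.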

How the data were processed

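The authors deposited gene expression as TPM, which corrects for transcript length and library total and keeps no read depth, so that no counting intervals can be given. The build GRCm39 and the tools fastp, HISAT2, RSEM and DESeq2 are named, per the submitters' processing notes, without versions or roles. Per the labels' protocols, stranded poly(A) libraries were made from 1-mm tissue punches.

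Values were analysed as log2(TPM + 1). Genes averaging 1 TPM or more in the 10 libraries were compared with limma 3.58.1 (lmFit, eBayes with trend, 2-sided; R 4.3.3 with data.table, version 1.17.8), 5 against 5 libraries, without covariates, with Benjamini-Hochberg adjustment over all tested genes and a threshold of 0.05. A second fit first subtracted the mean of 17 microglial markers from each library. The fit was tested on simulated data. No libraries were identical.

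The 7 genes and all lists were chosen with earlier results of these data known. Beyond the 7, the 3 genes of lowest p per list, all tested purinergic receptors and the 3 most alike genes per member were eligible to be named, with exceptions marked; 1 such gene is not reported here. Sequences are from RefSeq and GENCODE M21 (GRCm38). Alternatives varied the pseudocount, filter, scaling, variance model, markers and libraries. Figures were drawn with matplotlib 3.10.9.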

Additional observations from a re-analysis of the deposited data

Results flagged for a closer look

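In 4 of the 106 groups of 5 libraries examined (53 genes), 1 library stood apart from the other 4 by Dixon's criterion, a rate below the 1 in 20 that chance gives. P2ry6 was at 11.7 TPM in control library 9, with the other controls between 5.25 and 6.70 TPM. In the same library the border macrophage marker Ms4a7 was at 35.0 TPM (others 2.21 to 10.6) and Arhgef17, beside P2ry6, at 40.8 TPM (others 74.3 to 86.1). Fn1 was at 18.1 TPM in miR-130a library 18 (others 12.2 to 13.8). Without control library 9, P2ry6 remained lower in miR-130a libraries.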

How the results depend on the processing

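The number of the 7 genes that fell was 6 as reported, where 11.3% of all genes tested were lower, and lay between 4 and 6 over 21 alternatives. It was 4 without control libraries 7 and 9, where 15.6% of all genes were lower. The share of all genes is not given for the other alternatives. P2ry13, P2ry6, P2rx4 and Entpd1 kept their calls in all 21, and P2ry12 passed in none (−0.30 to −0.07). P2rx7 was lost in 6 of 21, including no filter on low values (limma adjusted p = 0.0705), and Adora3 in 2 of 20, no filter (0.0598) and the omission of control libraries 7 and 9. Relative to the microglial markers 2 genes passed, against 1 with quantile normalization, 1 with robust variance moderation, 4 with library weights and 1 without control libraries 7 and 9; leaving out each library in turn gave 1 to 2, not always the same genes: without control library 5 or miR-130a library 17 they were P2ry12 and P2ry13, both higher. P2ry13 also passed with a filter at 5 TPM (limma adjusted p = 0.0397) and with library weights (0.00795). In the main fit on this scale 85.9% of all genes tested were higher, so such calls of P2ry12 and P2ry13 are not particular to them. The difference relative to the markers changed sign for Adora3 with pseudocounts of 0.1 (−0.18) and 0.5 (−0.0102) and with markers under 100 TPM (−0.0346), and for P2rx4 with those markers (−0.11). Over the omission of single libraries it lay between −0.0132 and 0.178 for P2rx4, below 0 without miR-130a library 13. Of the pairs, P2rx4 minus Adora3 changed sign with a pseudocount of 0.1 (0.22) and lay between −0.192 and 0.0633 when single libraries were left out, above 0 without miR-130a library 17. P2ry13 minus P2rx7 lay between −0.0450 and 0.122, below 0 without library 14 or 18. The cause was not tested. In all 12 alternatives 0 pairs passed, where the smallest possible p again limited the exact test. Without control libraries 7 and 9 fewer splits exist and the limit is stricter, so the count there says less. TPM gives no depth, so the precision of low values such as Adora3 is unknown. No paired analysis was possible because the groups share no library numbers.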
